A study of Mus musculus with 4 samples.

Results

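The 8 genes described here encode replacement histone variants of the mouse, though not all of them. They are H2afz, H2afv, H2afx, H2afy, H2afy2, H3f3a, H3f3b and H1f0, whose RefSeq symbols are now H2az1, H2az2, H2ax, Macroh2a1, Macroh2a2, H3f3a, H3f3b and H1f0. They were named by family, and their regions are the H3K36me3 peaks that the authors' annotation gives to one of these genes in a class other than Intergenic. By this rule 47 of 95750 peaks belonged to them in the cKO list and 37 of 36820 in the WT list. Of these genes 6 had such a peak in both lists, while H2afy2 and H1f0 had none in either. In all, 8 of the 21887 protein-coding genes of the reference were members.

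The cKO forebrains came from C57BL/6 embryos at embryonic day 13 with a brain-specific loss of H2A.z1, the product of H2afz. The WT forebrains came from wild-type C57BL/6 embryos of the same stage, and the labels call the cells of both genotypes neural progenitor cells. The mark studied was H3K36me3, the trimethylated form of lysine 36 on histone H3, by chromatin immunoprecipitation and sequencing (ChIP-seq), with 1 ChIP and 1 input library for each genotype. The driver of the deletion, the deleted segment and the number of embryos are not given in the sources used here. As no genotype was replicated, each difference is between 2 libraries, its spread is unknown and no test was made.

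Most histones are made in S phase from intronless genes and are laid down behind the replication fork. Replacement variants come from separate genes, most of them with introns and polyadenylated mRNA, and they enter chromatin throughout the cell cycle with the help of dedicated chaperones. H3K36me3 is deposited by SETD2, which travels with elongating RNA polymerase II, so the mark lies over the bodies of transcribed genes and is usually low at their starts.

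The ChIP libraries were of similar depth, with 32927164 tags in cKO and 31984670 tags in WT. The cKO list was nevertheless longer, and its peaks had a median width of 436 bp in cKO against 271 bp in WT. Tags were extended to 185 bp in cKO and to 152 bp in WT before peaks were called, and the genome background was 3.26 tags in cKO and 2.60 tags in WT, so widths and pileups of the lists are not on 1 scale. The part of this in the differences below was not tested. Among marker genes of neural progenitors, 9 of 10 carried a peak in cKO and 7 of 10 in WT. Of all protein-coding genes 43.7% carried one in cKO and 31.3% in WT. In each genotype 2 of 5 neuronal markers had one. They were Tubb3 (38.7% of its span in cKO, 27.6% in WT) and Map2 (3.15% in cKO, 0.454% in WT). Of the microglial markers 1 of 5, and of the erythroid markers 2 of 4, had one in cKO and none in WT. Endothelial and mesenchymal markers had one in 0 of 10 cases in either genotype. The highest coverage among the microglial and erythroid markers was 7.02% of Csf1r in cKO, and the part of these cells in the results below was not tested. A difference in the share of cells that carry the mark cannot be told apart from a difference in its amount per cell.

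Coverage, the share of a gene's RefSeq span that lies inside peaks, was the measure compared between genotypes. In cKO 6 of the 8 genes carried a peak in their span, and in WT also 6, beside 43.7% of all protein-coding genes in cKO and 31.3% in WT. Coverage was higher in cKO by at least 10 percentage points at 5 of the 8 genes (H2afz, H2afv, H2afy, H2afy2 and H3f3a) and lower by as much at 0. Among all genes 28.0% were higher in cKO by this rule and 0.0137% were lower. All 4 members of at least 5 kb were among the 5, where 32.6% of all genes of that length were called. Of the 4 shorter members 1 was called, beside 12.6% of all genes under 5 kb. The median difference of the 8 genes was 20.2 points, with a median coverage of 30.3% in cKO and 11.7% in WT. The median difference was 0 over all genes and 23.1 points over the 6755 genes with a peak in both genotypes. The order of coverage was H3f3a, H2afy, H2afv, H2afy2, H2afz and H3f3b in cKO and H3f3a, H2afv, H3f3b, H2afy2, H2afy and H2afz in WT, and with 1 library each it cannot be said which neighbours in these orders differ beyond their spread.

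The calls depended on the length of the cKO list. Keeping only its strongest peaks, up to the sequence length that the WT peaks cover, left H3f3a as the 1 gene higher by the rule, at 28.2 points, with H2afy at 7.59 points. Of the others, 4 then had less coverage in cKO, with H2afv at -4.75, H2afy2 at -0.248, H2afz at -7.80 and H3f3b at -12.6 points. H2afx and H1f0 stayed at 0. This shortened list was applied to the 8 genes only, so no share of all genes can be set beside these counts.

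**Figure D1:**
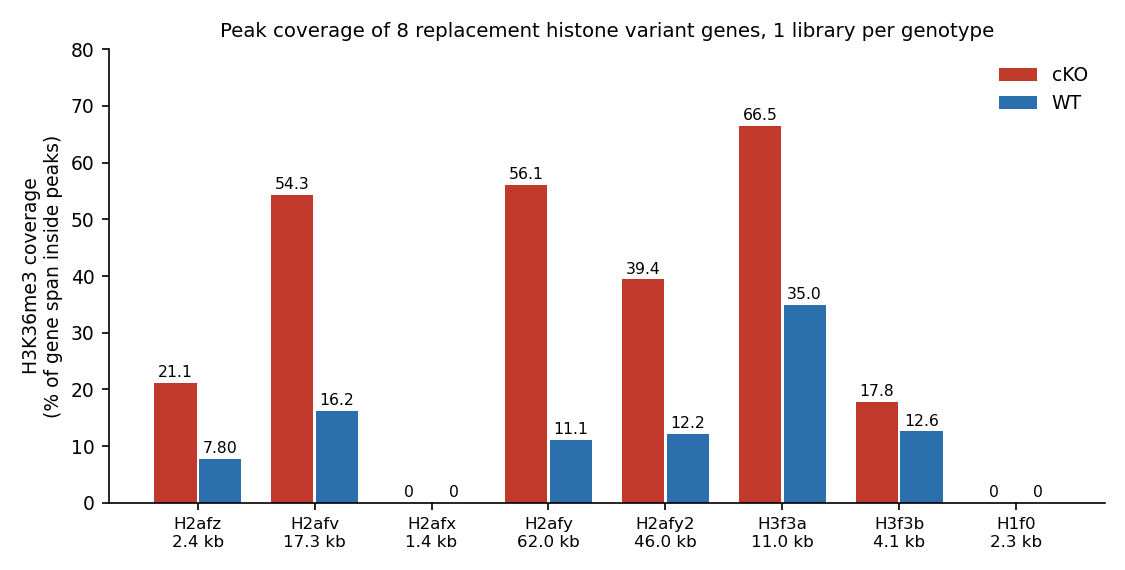
H3K36me3 coverage of the 8 genes, as the percentage of the gene span (named under each gene in kb) that lies inside peaks, with the cKO library left of the WT library. H3f3a was the most covered gene in both genotypes (66.5% in cKO, 35.0% in WT), and H2afx and H1f0 had no peak in their span in either.

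H2afz is the gene deleted in cKO and encodes H2A.Z.1, a variant of H2A found in nucleosomes that flank promoters and enhancers. It spans chr3:137864487-137866922 of mm10 on the plus strand, 2436 bp in all. In cKO 21.1% of the span lay inside 2 peaks, and in WT 7.80% lay inside 1 peak. One cKO peak began 1539 bp after the gene's start and was 412 bp wide, and the WT peak began at 1540 bp and was 190 bp wide. The other cKO peak crossed the end of the gene and was annotated to the next gene, Dnajb14, whose span begins 752 bp further on. The extent of the deletion is unknown, so these peaks do not check the genotype.

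The shared H2afz peak stood differently in each list. Its summit held a pileup of 25 tags, extended to 185 bp, in cKO and of 26 tags, extended to 152 bp, in WT. Its fold enrichment over local background was 2.50 in cKO, at the 0.142 percentile of that list, and 5.24 in WT, at the 52.1 percentile of its own list. The local background recovered from these values was 2.89 times the genome background in cKO, the 98.2 percentile of that list, and 1.60 times in WT, the 93.9 percentile, and its part in the result was not tested. At a -log10 q of at least 5, or at a fold enrichment of at least 4, the shared peak was lost from the cKO list and the difference of 13.3 points became -3.61 points. With peaks within 3 kb joined it was 29.0 points.

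H2afv encodes H2A.Z.2, the close paralogue of the deleted variant. It spans chr11:6427226-6444511 on the minus strand, 17286 bp in all. Coverage was 54.3% in cKO, with 8 peaks, and 16.2% in WT, with 9 peaks. The cKO peaks were 508 to 2126 bp wide and the WT peaks 154 to 657 bp. Each of the 9 WT peaks lay under a cKO peak, so the cKO library had fewer but broader peaks over the same stretch. Of all genic WT peaks 96.5% were overlapped by a cKO peak. The most enriched cKO peak, with a fold of 13.4 (99.7 percentile of its list), lay 6084 to 8069 bp after the start. In WT the same stretch held 2 peaks, at 6379 to 6740 and 7682 to 7958 bp. Peaks went on past the 3′ end: over the next 6 kb they covered 52.0% of the sequence in cKO and 16.5% in WT. When peaks within 3 kb were joined, 1 domain in each genotype began 6084 bp (cKO) and 6379 bp (WT) after the start and ran past the 3′ end, and the difference shrank to 1.71 points.

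H3f3a and H3f3b encode the same protein, H3.3, which is placed in transcribed chromatin by HIRA and in heterochromatin by the DAXX and ATRX pair. Coverage of their RefSeq spans differed, but these spans are not alike, and the part of this in the contrast was not tested. The span of H3f3b runs from -1535 to 2543 bp around its annotated start. In H3f3a the authors' annotation classed the cKO peak at 3308 to 4886 bp after the start as TTS, a transcript end. It gave the next cKO peak, and 6 of the 10 WT peaks, to Gm17275. H3f3a (chr1:180802560-180813605, minus strand, 11046 bp) was covered by 66.5% in cKO, in 3 peaks, and by 35.0% in WT, in 10 peaks. Among the genes with a peak it stood at the 93.6 percentile of coverage in cKO and at the 96.1 percentile in WT. One cKO peak of 5403 bp and a fold of 10.2 spanned 5115 to 10517 bp after the start and held 7 of the WT peaks. The headers name uniquely aligned reads and the reference lists the pseudogenes H3f3a-ps1 and H3f3a-ps2, whose part in these values was not tested. After joining within 3 kb the difference fell to 1.11 points, and 1 domain of 10747 bp in cKO and 1 of 9825 bp in WT covered nearly the same bases.

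H3f3b (chr11:116021961-116026039, minus strand, 4079 bp) was covered by 17.8% in cKO and by 12.6% in WT, each in 1 peak. The cKO peak was 727 bp wide with a fold of 5.94 (66.3 percentile of its list), and the WT peak was 515 bp wide with a fold of 7.78 (96.4 percentile of its own list). The summit held a pileup of 38 tags in cKO and of 27 tags in WT. Local background was 1.71 times the genome background in cKO and 1 times in WT, and its part in the fold was not tested. The difference of 5.20 points did not reach the rule of 10 points. Its rank among genes with a peak was lower in cKO, at the 45.2 percentile, than in WT, at the 77.5 percentile. A pair of further cKO peaks, 264 and 298 bp wide, was annotated to H3f3b but lay just past its 3′ end, where WT had none. With the span extended by 1 kb on each side the difference was 12.7 points, and with peaks within 3 kb joined it was 34.3 points, which both pass the rule.

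H2afy and H2afy2 encode macroH2A1 and macroH2A2, H2A variants with a large globular macro domain that are enriched on the inactive X chromosome and other silenced chromatin. H2afy (chr13:56073622-56135626, minus strand, 62005 bp) was the longest member and had the largest difference. Its coverage was 56.1% in cKO, in 32 peaks, and 11.1% in WT, in 22 peaks, which is 34792 bp against 6895 bp. The 3 widest cKO peaks measured 6207, 5392 and 4948 bp, while the widest WT peak measured 786 bp. All 22 WT peaks were overlapped by a cKO peak, but 22 of the 32 cKO peaks had no WT peak under them. Of all genic peaks, 96.5% of those in WT and 25.6% of those in cKO were overlapped by a peak of the other list. A broad cKO peak 6877 to 13083 bp after the start held 7 WT peaks. In WT no peak lay between 16927 and 33635 bp after the start, a stretch that held 9 cKO peaks and part of the lncRNA gene Gm31485. Joining within 3 kb left 1 domain of 60292 bp in cKO and 6 domains in WT, the longest of 8043 bp, so at H2afy the difference rose to 61.9 points. Joining also raised the difference at H2afz and H3f3b, and it lowered the difference at H2afv, H3f3a and H2afy2.

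H2afy2 (chr10:61738640-61784604, minus strand, 45965 bp) carried no peak by name, but its span held 11 cKO peaks and 16 WT peaks. The authors' annotation gave these to Aifm2, which shares the last 621 bp of the gene, or to the microRNA gene Mir5108 inside it. Coverage was 39.4% in cKO and 12.2% in WT. The cKO peaks were 315 to 5500 bp wide and the WT peaks 152 to 750 bp. Every WT peak was overlapped by a cKO peak, as were 96.5% of all genic WT peaks. The mark sat in the 3′ part in both genotypes: of 3 equal parts of the span, the last was covered by 89.0% in cKO and by 31.5% in WT, and the first by 10.9% in cKO and by 0% in WT. A pair of cKO peaks 8800 to 10965 bp after the start, 1357 and 315 bp wide, had no WT partner, and the next cKO peak began 25561 bp after the start. Joining within 3 kb reduced the difference to 5.61 points.

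**Figure D2:**
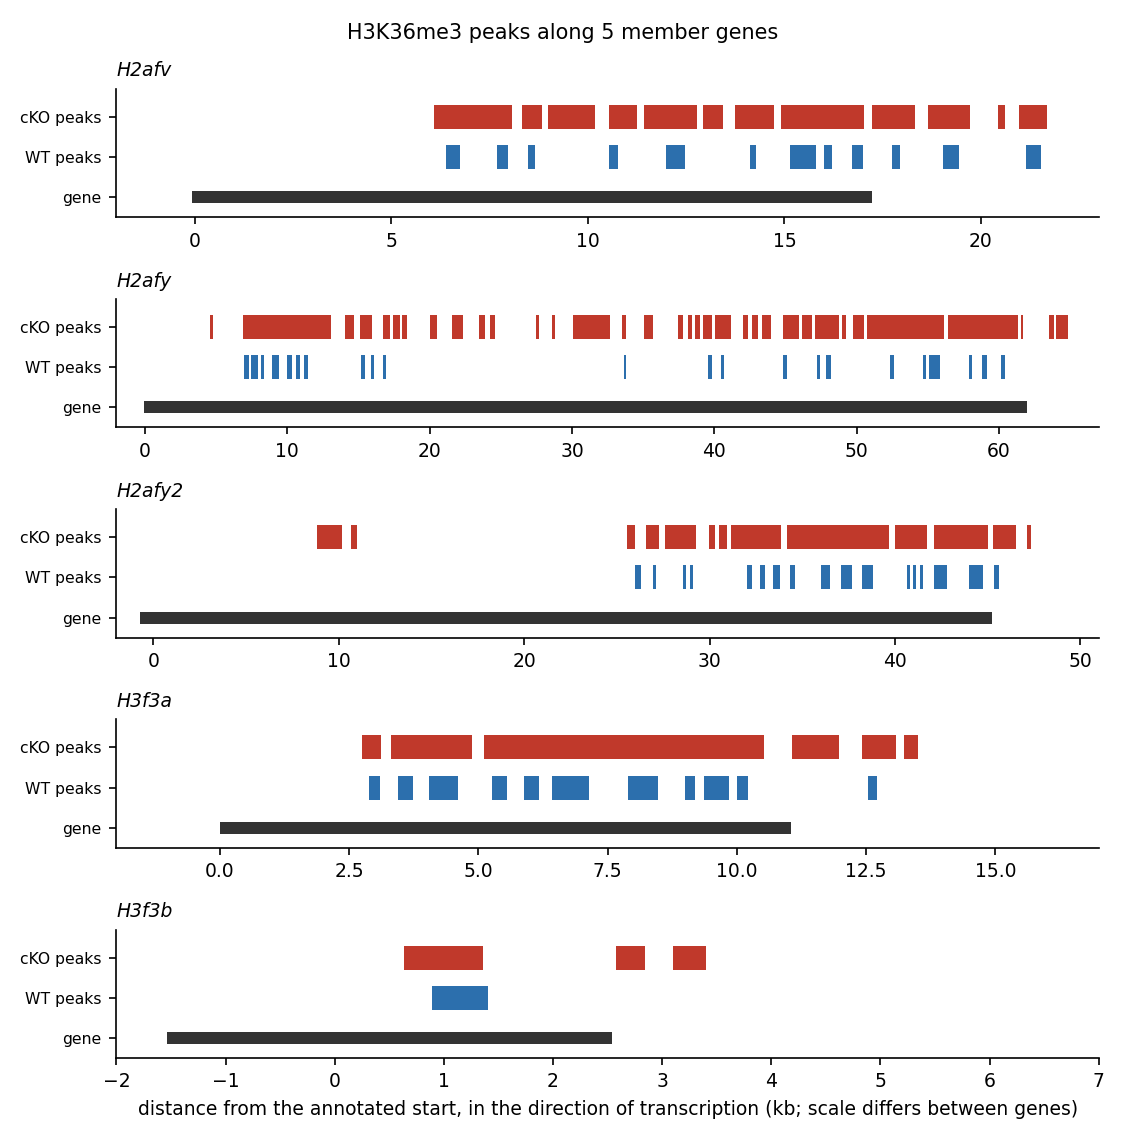
Peaks along 5 of the genes, drawn as distance in kb from the annotated start in the direction of transcription, with cKO peaks above WT peaks and the RefSeq span as a dark bar. WT peaks lie under cKO peaks throughout, the stretch after each start is empty in both, the span of H3f3b begins before its annotated start, and of these 5 genes H2afy shows a long middle stretch with cKO peaks only.

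H2afx encodes H2A.X, which is phosphorylated around DNA double-strand breaks, and H1f0 encodes the linker histone H1.0, which accumulates in cells that stop dividing. Neither had a peak in its span in either genotype. H2afx (chr9:44334715-44336077, 1363 bp) had 2 peaks by name in cKO and 3 in WT, and 0 of these 5 overlapped its span. With the span extended by 1 kb on each side the difference at H2afx was 20.2 points. Dpagt1, an enzyme of N-glycosylation whose span ends 819 bp from that of H2afx, held some of them and was covered by 51.7% in cKO and by 9.70% in WT. H1f0 (chr15:79028212-79030504, plus strand, 2293 bp) had its nearest peak 5190 bp away in cKO, inside the neighbouring gene Gcat, and 22671 bp away in WT.

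**Figure D3:**
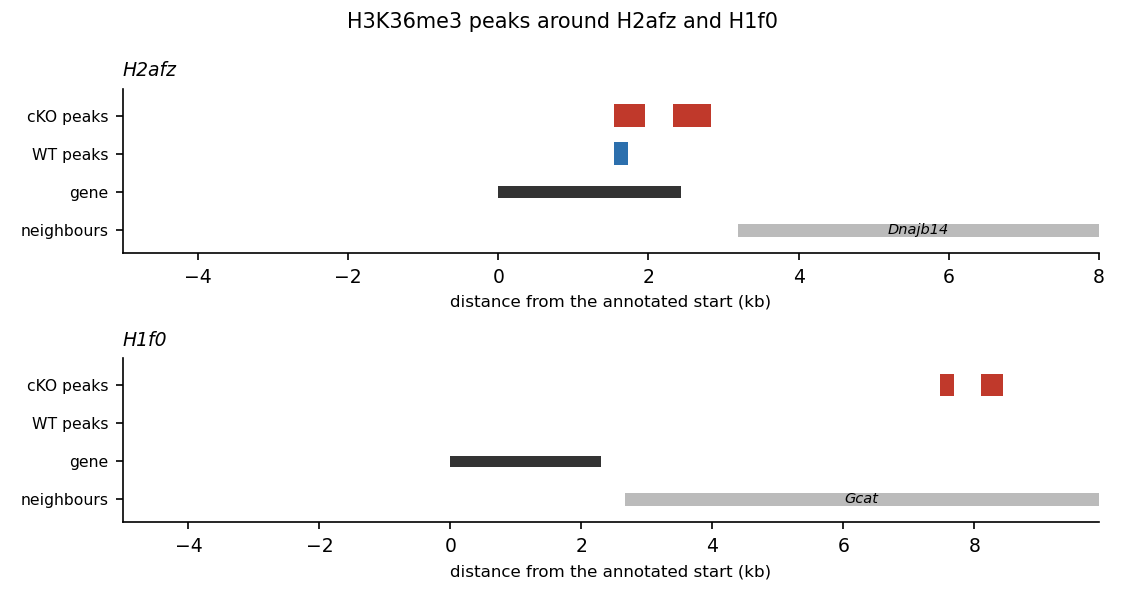
Peaks around H2afz and H1f0, with cKO peaks above WT peaks, the gene as a dark bar and its protein-coding neighbour in grey, on an axis of distance in kb from the annotated start. Both H2afz peaks in cKO and the WT peak lie toward the 3′ end of the gene, and H1f0 has no peak within 5 kb in either genotype.

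Of the 8 genes, all but H2afx have an annotated start window, which runs from 250 bp before the start to 50 bp after it. In either genotype 0 of these 7 windows overlapped a peak. Peaks in this window were rare throughout, at 0.863% of genes in cKO and 0.149% in WT. The authors' annotation classed 2 cKO peaks and 1 WT peak of H2afy as promoter-TSS, but these lay at least 44806 bp after the start used here. The first peak of the span began 1539 bp after the start in cKO and 1540 bp in WT at H2afz, and 6084 bp in cKO and 6379 bp in WT at H2afv. At H3f3a it began after 2755 bp in cKO and 2878 bp in WT, and at H3f3b after 631 bp in cKO and 891 bp in WT. The edge nearest the start was thus at a similar place in both genotypes at these 4 genes. It lay further upstream in cKO at H2afy, at 4581 bp against 6964 bp in WT, and at H2afy2, at 8800 bp against 25974 bp in WT. Among the 5137 other genes of at least 5 kb with a peak in both genotypes and a known start, the median distance was 4706 bp in cKO and 9365 bp in WT.

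Coverage was lowest in the first of 3 equal parts of the span at 5 of the 6 genes with peaks, in both genotypes. H3f3b is among the 5, but its span runs from -1535 to 2543 bp around the annotated start. The first part of H3f3b thus lies wholly before that start, so its lack of peaks cannot show where the mark sits after the start. At H2afv the first, middle and last part were covered by 0%, 77.0% and 85.9% in cKO and by 0%, 17.9% and 30.8% in WT. At H3f3a these shares were 19.9%, 93.8% and 85.7% in cKO and 11.98%, 52.3% and 40.6% in WT. H2afy departed from this order, with 47.4%, 39.9% and 81.0% in cKO and 15.7%, 3.21% and 14.5% in WT, so its middle part was the least covered in both. Over the same 5137 genes the median shares were 5.48%, 30.8% and 47.6% in cKO and 0%, 2.42% and 6.60% in WT.

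The sequences before the starts are shown for the H2A.Z pair and the H3.3 pair, where the genes of a pair encode the same or nearly the same protein but differ in coverage, and for H1f0, which has no peak. Each is the 250 bases before the annotated start, 5′ to 3′ on the gene's strand, from RefSeq on GRCm38.p6. They are chr3:137864237-137864486 (plus) for H2afz, chr11:6444444-6444693 (minus) for H2afv, chr1:180813606-180813855 (minus) for H3f3a, chr11:116024505-116024754 (minus) for H3f3b and chr15:79027962-79028211 (plus) for H1f0. Capitals mark CCAAT, on the other strand ATTGG, and TATAAA, on the other strand TTTATA.
H2afz: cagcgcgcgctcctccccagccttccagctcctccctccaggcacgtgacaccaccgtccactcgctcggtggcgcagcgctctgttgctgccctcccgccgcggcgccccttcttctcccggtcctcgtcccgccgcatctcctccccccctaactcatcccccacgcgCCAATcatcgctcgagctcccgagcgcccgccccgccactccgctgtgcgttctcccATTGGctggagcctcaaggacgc
H2afv: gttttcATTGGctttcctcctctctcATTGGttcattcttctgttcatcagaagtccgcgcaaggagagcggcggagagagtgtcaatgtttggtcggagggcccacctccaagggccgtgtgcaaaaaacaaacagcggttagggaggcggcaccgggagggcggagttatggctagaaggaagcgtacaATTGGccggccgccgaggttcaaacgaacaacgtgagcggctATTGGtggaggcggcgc
H3f3a: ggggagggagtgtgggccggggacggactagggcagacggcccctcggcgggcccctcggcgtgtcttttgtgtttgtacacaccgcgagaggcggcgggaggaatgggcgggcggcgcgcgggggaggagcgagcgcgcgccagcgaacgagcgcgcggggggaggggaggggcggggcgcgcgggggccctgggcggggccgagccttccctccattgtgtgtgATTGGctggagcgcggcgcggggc
H3f3b: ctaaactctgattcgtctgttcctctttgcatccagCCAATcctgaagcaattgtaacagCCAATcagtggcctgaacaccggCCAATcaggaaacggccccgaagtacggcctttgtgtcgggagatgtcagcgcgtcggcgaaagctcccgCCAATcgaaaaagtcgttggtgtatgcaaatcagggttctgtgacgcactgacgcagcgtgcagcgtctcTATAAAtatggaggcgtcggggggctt
H1f0: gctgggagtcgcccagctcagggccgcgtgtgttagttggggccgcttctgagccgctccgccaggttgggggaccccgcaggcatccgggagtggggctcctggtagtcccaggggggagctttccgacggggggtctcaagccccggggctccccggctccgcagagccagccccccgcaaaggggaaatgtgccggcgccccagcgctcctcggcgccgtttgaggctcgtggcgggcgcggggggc

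CCAAT, the letters bound by NF-Y, stood 2 times before H2afz, 4 times before H2afv, 1 time before H3f3a and 4 times before H3f3b on either strand. It was not found in the windows of H2afy, H2afy2 and H1f0. At least 1 CCAAT was thus present in 4 of 7 windows, and in 35.4% of the 21263 windows of all protein-coding genes. TATAAA occurred in 1 of the 7, that of H3f3b, beginning 27 bp before the start, and in 11.6% of all windows. The motifs did not overlap each other. The share of G and C was 71.2% at H2afz, 57.2% at H2afv, 77.2% at H3f3a and 74.4% at H1f0, above the median of all windows (55.6%), and 54.0% at H3f3b, below it. A match describes the letters of the window and says nothing of binding there.

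At these genes 21 of the 47 cKO peaks given to them by name shared 1 bp or more with a WT peak (44.7%, Clopper-Pearson 95% interval 30.2 to 59.9%, counting error only), where 25.6% of all 92920 genic cKO peaks did. All 37 WT peaks shared 1 bp or more with a cKO peak (100%, interval 90.5 to 100%), and 96.5% of all 36006 genic WT peaks did. Of these peaks, 32 of 47 in cKO and 22 of 37 in WT came from H2afy, where 10 of the 32 met a WT peak. Peaks of 1 gene are not independent, so the intervals do not give a spread over genes. A reciprocal overlap of 50% left 3 of 47 cKO peaks (6.38%) and 3 of 37 WT peaks (8.11%), and the cKO list at equal covered length met 43.2% of the WT peaks. By position in place of name, 28 of 57 cKO peaks (49.1%) and 59 of 59 WT peaks met a partner. The name and the position of a peak often differed: 14 of the 57 cKO peaks and 25 of the 59 WT peaks within a member's span were annotated to another gene, and 4 of 47 cKO and 3 of 37 WT peaks by name lay outside the named gene. At H3f3a the cKO peak of 5403 bp and 6 of the 10 WT peaks were given to Gm17275, and at H2afv 1 cKO peak and 3 WT peaks were given to Ppia.

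**Figure D4:**
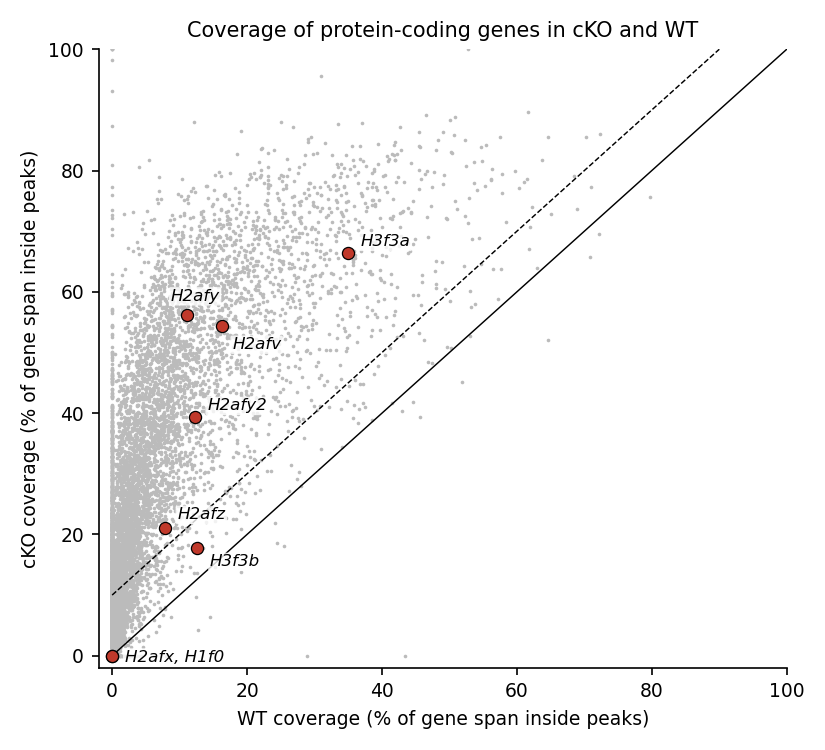
Coverage of each protein-coding gene with a peak in cKO (vertical axis, % of span) and WT (horizontal axis, % of span), with the 8 genes as large points. The solid line marks equal coverage and the dashed line 10 points more in cKO. H3f3b lies between the lines, 5 genes lie above the dashed line, and H2afx and H1f0 sit at 0.

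Genes of similar length with the most similar pair of coverages are given as a description over the 2 libraries. Nearest to H3f3a were Ap2m1, a clathrin adaptor subunit (66.6% in cKO, 34.5% in WT), and Eno1, a glycolytic enzyme (64.9% in cKO, 35.7% in WT). Next to H3f3b stood Taf9, a subunit of TFIID (17.7% in cKO, 13.4% in WT), and Fth1, the ferritin heavy chain (18.2% in cKO, 14.9% in WT). For H2afz they were Cox8a (23.0% in cKO, 7.89% in WT) and Cox14 (21.2% in cKO, 10.4% in WT), which serve cytochrome c oxidase. H2afv had Rnf122 (53.8% in cKO, 16.6% in WT) and Srprb, a subunit of the signal recognition particle receptor (53.7% in cKO, 16.1% in WT). H2afy had the nuclear pore genes Tpr (54.4% in cKO, 11.2% in WT) and Ahctf1 (56.2% in cKO, 8.96% in WT). H2afy2 had Cand1 (39.4% in cKO, 10.9% in WT) and the kinesin gene Kif21b (40.4% in cKO, 11.2% in WT).

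Genes of histone chaperones, not all of them particular to replacement variants, were widely marked. Of 18 chaperone genes, 18 carried a peak in cKO and 17 in WT, beside 43.7% of all genes in cKO and 31.3% in WT. Coverage was higher in cKO by at least 10 points at 17 of them, with a median difference of 34.9 points. Over all genes with a peak in both genotypes the median difference was 23.1 points. Of all genes 28.0% were higher by this rule, and of genes of at least 5 kb 32.6%. The median span of the chaperone genes was 27618 bp. Npm1, the chaperone nucleophosmin, had the largest difference, with 62.0% in cKO and 12.3% in WT. Hira was covered by 41.0% in cKO and by 7.49% in WT, and Daxx by 62.2% in cKO and by 33.8% in WT. Atrx, the partner of DAXX, was the only one under the rule, with 2.48% in cKO and 0.359% in WT. Anp32e, which removes H2A.Z from nucleosomes, was covered by 56.7% in cKO and by 21.4% in WT.

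Of the replication-dependent histone genes 0 of 67 carried a peak in either genotype. The headers name uniquely aligned reads, and the part of this restriction in the count was not tested. Their median span was 492 bp and 61 of them are under 1 kb, a length at which 1.08% of all genes carried a peak in cKO and 0.444% in WT. Of 6 genes that serve the making or processing of their mRNA, 5 carried a peak in cKO and 4 in WT. Among all genes 43.7% carried one in cKO and 31.3% in WT. By the rule 4 of the 6 were higher in cKO, as were 28.0% of all genes. Slbp, the stem-loop binding protein, had the largest difference, with 59.5% in cKO and 13.6% in WT. Among 4 further genes, Cenpa, the centromeric H3 variant, was covered by 47.5% in cKO and by 18.5% in WT, and H2afj and H1fx had no peak in either. Hjurp, the chaperone of CENP-A, was the only gene of these lists with less coverage in cKO, at 75.7% against 79.7% in WT, within the rule of 10 points.

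**Figure D5:**
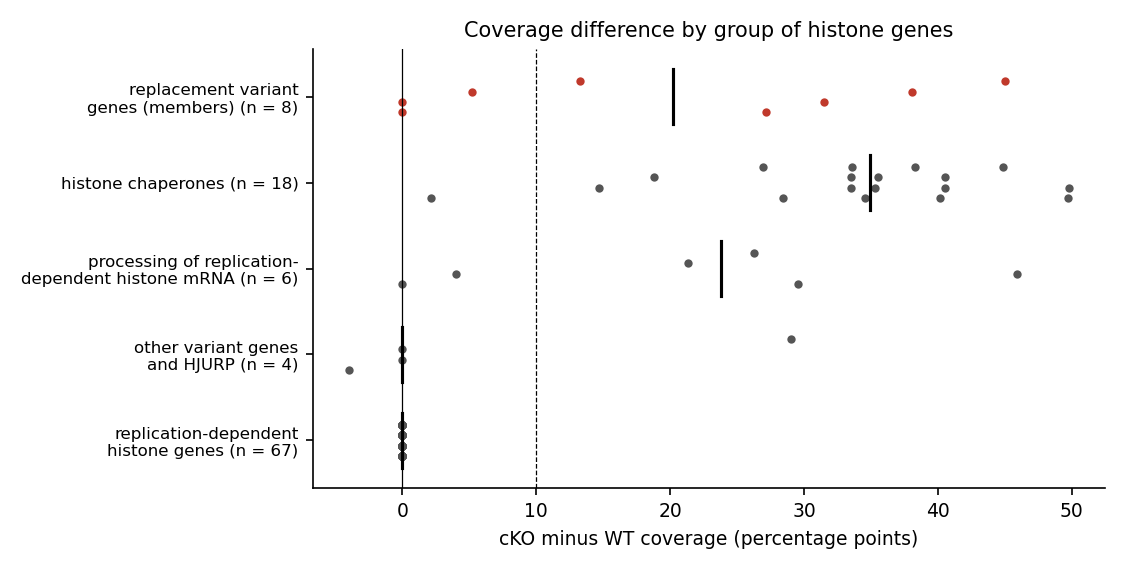
Difference in coverage, cKO minus WT in percentage points, for the 8 replacement variant genes (red) and for related genes (grey), 1 point per gene, with a bar at the median of each group. The dashed line is the rule of 10 points. The 67 replication-dependent histone genes lie at 0, and Hjurp is the point below 0.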

How the data were processed

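The submitters' processing notes name Bowtie2 2.2.9, FastQC, bedtools and mm10. MACS called narrow peaks of each ChIP library against an input at a p cutoff of 1.00e-05, per the file headers, which give version 2.1.1.20160309 where the submitters' processing notes give 2.1.0. Alignment names in the headers mention unique reads and removed duplicates. The deposited lists give positions, the pileup signal at the summit, the fold enrichment over local background and the -log10 p-value and q-value. These were ranked only within a list. The deposited annotation gives each peak a class and a gene, but the sources used here do not name its tool. Starts there are 1 bp higher than those of the lists.

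Coverage was computed with pandas 2.3.3 and numpy 2.4.6 from merged peaks over RefSeq spans of GRCm38.p6, which has the mm10 chromosomes. Strand and start came from the RefSeq start windows, the most upstream where a gene has several. Local background was (pileup + 1) / fold - 1, set against the genome average (tags times fragment length over genome size). The inputs held 35026817 tags in cKO and 38500353 in WT. With 1 ChIP library per genotype no test was run, and shares carry exact intervals from scipy 1.17.1. Alternatives were stricter peak thresholds, a shortened cKO list, joined peaks, a wider span and a stricter overlap. The interval code was tested on small simulated lists. All 8 genes were named, with the 2 genes nearest in coverage among those within 1.25 times the span, and from related lists the largest difference and any gene going down. Hira, Daxx, Atrx, Anp32e, H2afj, H1fx, Csf1r, Tubb3 and Map2 were added after their values were seen, as were the neighbouring genes. The members and lists were chosen with earlier results of these data known.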

Additional observations from a re-analysis of the deposited data

Results flagged for a closer look

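The cKO list held 2 peaks of class Intergenic that were annotated to H2afy, and the WT list held 0. They fall outside the rule that chose the peaks and outside the gene span, so no coverage value above includes them, but the joined cKO domain of 60292 bp at H2afy extends over them. They lie past the 3′ end of the gene, at chr13:56070678-56071539 (862 bp, fold enrichment 5.44) and chr13:56071717-56072032 (316 bp, fold enrichment 3.43), on mm10.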

How the results depend on the processing

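Without replicates, none of these values carries a spread, and peaks listed above a threshold say nothing of weaker signal below it. No paired analysis was possible because each genotype has 1 ChIP library. Coverage is bounded by the gene's length and depends on how narrow peaks break up a broad mark. The number of genes with a peak in the span stayed between 4 and 7 in cKO and between 6 and 7 in WT under the alternatives tried. By the authors' gene names it was 6 in each, but with H2afx in place of H2afy2. The alternatives were computed for the 8 genes only, so their counts and shares have no value over all genes beside them. The number of genes higher in cKO was 5 by the main rule, which called 28.0% of all genes. It was 4 at a -log10 q of at least 5 and 4 at a fold of at least 4. With the cKO list cut to as many peaks as WT has it was 4, and cut to the length WT covers it was 1. With peaks within 3 kb joined it was 3, namely H2afy at 61.9, H3f3b at 34.3 and H2afz at 29.0 points. H3f3b was not among the 5. The number was 7 with spans extended by 1 kb, 6 under a rule of 5 points and 4 under one of 20 points. The median difference of 20.2 points was 3.66 points after joining and -0.124 points at equal covered length, where H2afv was at -4.75, H2afy2 at -0.248, H3f3b at -12.6 and H2afz at -7.80 points, H2afy at 7.59 and H3f3a at 28.2 points. H2afz was also at -7.80 points at equal number of peaks, and at -3.61 points under either threshold. The share of cKO peaks met by a WT peak was 68.0% at equal number, 100% at equal length (5 of 5), 100% after joining (6 of 6 domains) and 6.38% with a reciprocal overlap of 50%. The share of WT peaks met by a cKO peak was 89.2% at equal number, 43.2% at equal length and 8.11% with the reciprocal overlap. These reductions remove cKO peaks by construction.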

Other observations

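The genes named here beside the replacement variant genes also had more coverage in cKO. Ppia, Unk and Dpagt1 passed the rule of 10 points, as did 28.0% of all genes, while Gcat, Aifm2 and Dnajb14 did not. Ppia, which encodes cyclophilin A and lies 7408 bp from H2afv, was covered by 40.3% in cKO and by 19.9% in WT. Unk, 2576 bp from H3f3b, was covered by 54.0% in cKO and by 19.3% in WT. Gcat, 369 bp from H1f0, was covered by 4.61% in cKO and by 0% in WT, and Aifm2, which overlaps the end of H2afy2, by 7.57% in cKO and by 1.80% in WT. Part of the Aifm2 coverage lies in the bases that it shares with H2afy2. Dnajb14, 752 bp from H2afz, was covered by 0.393% in cKO and by 0% in WT.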
